A study of Rattus norvegicus with 42 samples.

Results

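Skeletal muscle genes were followed array by array in cultured rat kidney mesenchyme. The 10 genes were Myod1, Myog, Acta1, Myh3, Myl1, Ttn, Tnnc1, Des, Actn3 and Synpo2l, chosen by gene symbol out of 14217 genes with a probe set of their own, and each had 1 probe set on the array. They were proposed with results of these data known, so their levels and differences are a description and carry no test. Metanephric mesenchyme, the embryonic tissue that forms nephrons, was dissected from rats at embryonic day 13.5 and freed of the ureteric bud with trypsin and DNase. The 42 arrays (Affymetrix expression arrays for the rat) formed 21 groups of 2 biological replicates: fresh tissue, mesenchyme kept in culture with no inducer for 1 or 2 days, and mesenchyme cultured with LIF, NGAL or the ANX fraction for 1, 2, 3, 4, 5 or 7 days. LIF is a cytokine, NGAL is the iron-binding protein lipocalin 2, and the sources used here do not say what ANX, called a fraction in the labels, is made of. All cultures, uninduced ones included, grew on collagen-coated filters in DMEM/F12 with insulin, transferrin, selenium, dexamethasone, prostaglandin, T3, FGF at 50 ng/ml and a TGF at 20 ng/ml. Uninduced cultures were taken on days 1 and 2 only, so later days under an inducer have no uninduced group of the same age. The strain and sex of the embryos, and whether explants were pooled, were not given in the labels.

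In skeletal muscle, transcription factors of the MyoD family bind E-boxes in muscle promoters: Myod1 commits a cell to the lineage and Myog drives the exit into differentiation. Myoblasts then fuse and build sarcomeres, in which thin filaments of skeletal actin (Acta1) with troponins (Tnnc1 is the slow and cardiac troponin C) slide on thick filaments of myosin (Myh3 is the embryonic heavy chain, Myl1 an essential light chain). Titin (Ttn) spans from the Z-disc to the middle of the sarcomere, Actn3 and Synpo2l are Z-disc proteins, and desmin (Des) is an intermediate filament shared with smooth muscle. The metanephros is not a source of skeletal muscle in normal development.

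Of the 10 genes, 8 had a promoter among the RefSeq sequences of the GRCr8 build, with 9 entries in all because Myl1 has 2 starts. The 250 bases before the start are printed for Myog, for 2 sarcomere genes with a wide range over the arrays (Acta1, Myh3), and for Des, which did not follow them. Capitals mark matches on either strand to the E-box CANNTG, to the MEF2 box and to the CArG box, the site of serum response factor. CAGCTG, the form of the E-box printed for Acta1 and Des, is counted within CANNTG.

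Myog, chr13:48297226-48297475, plus strand: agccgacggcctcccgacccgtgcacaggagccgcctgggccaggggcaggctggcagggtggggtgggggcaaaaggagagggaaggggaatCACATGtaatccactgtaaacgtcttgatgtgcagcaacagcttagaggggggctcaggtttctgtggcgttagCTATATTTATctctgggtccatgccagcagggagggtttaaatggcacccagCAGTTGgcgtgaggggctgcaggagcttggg

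Acta1, chr19:68784195-68784444, minus strand: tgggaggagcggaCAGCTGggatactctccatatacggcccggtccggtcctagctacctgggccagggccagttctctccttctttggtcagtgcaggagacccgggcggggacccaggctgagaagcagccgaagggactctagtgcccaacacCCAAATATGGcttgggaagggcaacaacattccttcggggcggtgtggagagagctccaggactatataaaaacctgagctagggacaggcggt

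Myh3, chr10:52268935-52269184, plus strand: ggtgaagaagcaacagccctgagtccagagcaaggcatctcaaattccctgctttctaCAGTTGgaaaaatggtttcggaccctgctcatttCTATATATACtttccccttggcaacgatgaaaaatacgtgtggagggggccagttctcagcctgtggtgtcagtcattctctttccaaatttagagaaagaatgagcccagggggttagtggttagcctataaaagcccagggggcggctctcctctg

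Des, chr9:84299376-84299625, plus strand: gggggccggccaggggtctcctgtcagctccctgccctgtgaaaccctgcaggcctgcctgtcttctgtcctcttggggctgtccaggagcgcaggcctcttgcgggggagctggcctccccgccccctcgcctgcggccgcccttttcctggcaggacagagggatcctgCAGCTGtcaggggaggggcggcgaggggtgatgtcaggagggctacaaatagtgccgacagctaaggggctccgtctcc

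Myog held 2 E-boxes and 1 MEF2 box, Acta1 held 1 CAGCTG and 1 CArG box, and Myh3 held 1 E-box and 1 MEF2 box. Des, with the narrowest range of the 10 genes, held 1 CAGCTG as Acta1 did. Among all 33465 promoter windows of this length, 65.5% held an E-box, 12.0% CAGCTG, 9.02% a MEF2 box and 1.5% a CArG box. A match is a run of letters and says nothing of binding in these cultures.

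Arrays were of like overall brightness, with median intensities of 83.3 to 88.4, and the 2 arrays of a group correlated at 0.967 to 0.996 over genes. Defining genes of the kidney mesenchyme were present in fresh tissue, where Wt1 lay at 11.33 and 11.44, Eya1 at 10.97 and 11.13, and Pax2 at 8.53 and 8.76 on the log2 intensity scale that is used throughout. A level under 5.79, the 40th percentile of all values, is taken as weak signal. Arrays carry no read depth, and their number, 2 a group, limits the precision.

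The 2 myogenic transcription factors were high under NGAL in the middle of the week and in uninduced culture on day 2. Under NGAL, Myod1 lay at 4.07 and 4.10 on day 1, at 5.62 and 7.64 on day 2, at 8.97 and 9.32 on day 3, at 8.45 and 10.15 on day 4, at 7.70 and 9.40 on day 5, and at 4.63 and 7.87 on day 7, against 4.17 and 4.08 in fresh tissue. Both NGAL arrays of days 2 to 5 were above both fresh arrays, and the first array of day 7 had come back to near the fresh level. Without inducer, Myod1 lay at 5.11 and 4.47 on day 1 and at 7.16 and 8.38 on day 2. Under LIF the first arrays of the 6 days stayed between 3.94 and 4.49, while the second arrays lay at 4.12, 4.01, 5.06, 8.93, 5.61 and 6.47 in order of days. Under ANX the first arrays lay at 4.19, 4.10, 4.03, 4.16, 4.14 and 3.99, and the second at 4.13, 4.13, 6.31, 5.05, 4.22 and 5.06. The high LIF and ANX values stood on 1 array of each pair. LIF day 4 and all ANX groups overlapped fresh tissue, while both LIF arrays of days 3, 5 and 7 lay above both fresh arrays, the first array by little. In bulk explants, fewer muscle cells and less muscle RNA per cell cannot be told apart.

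The weak-signal threshold is pooled over all probe sets, so a level above it does not show that 1 gene was expressed. Myog lay above it on all 42 arrays, in fresh tissue at 6.89 and 6.80, and ran with Myod1 over the arrays. Under NGAL it lay at 6.98 and 6.71 on day 1, 8.18 and 9.29 on day 2, 11.26 and 11.84 on day 3, 11.15 and 12.34 on day 4, 9.56 and 11.71 on day 5, and 7.68 and 9.56 on day 7. All 10 NGAL arrays from day 2 on were above both fresh arrays. Uninduced culture gave 7.82 and 6.91 on day 1 and 9.34 and 9.96 on day 2. Under LIF only the second arrays were high, with 8.21 on day 3, 10.45 on day 4, 7.52 on day 5 and 8.34 on day 7, beside 7.01, 6.81, 6.78 and 7.12 on the first arrays. Under ANX the second arrays of day 3 and day 7 stood at 9.31 and 8.25, and the other 10 ANX arrays lay between 6.74 and 7.24. Over the 42 arrays the Pearson correlation of Myod1 with Myog was 0.98, given as a description, since arrays of a group and of an inducer share conditions.

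**Figure D1:**
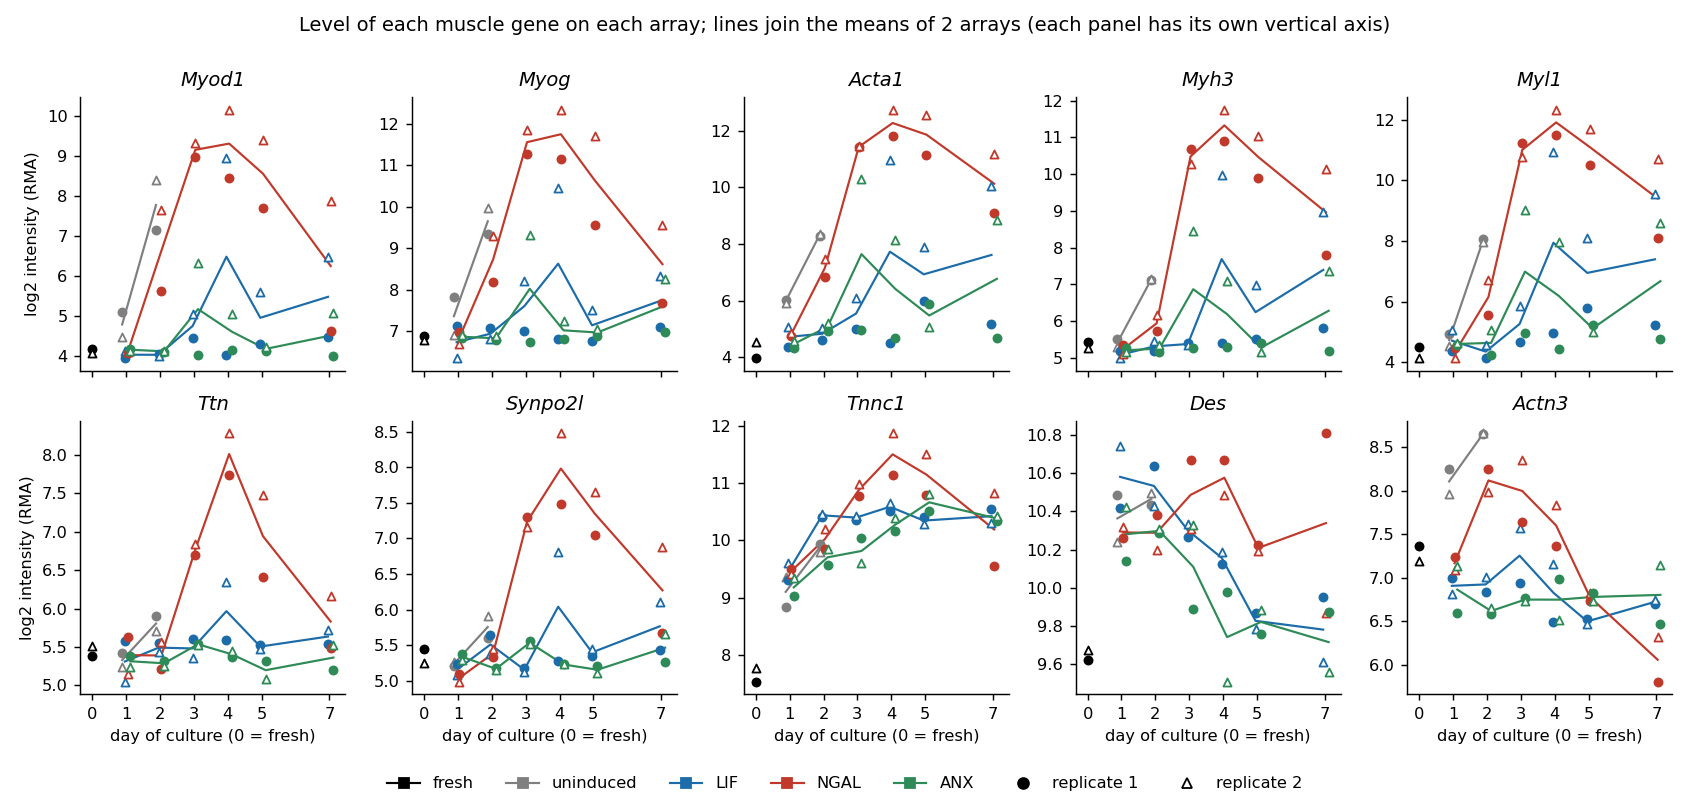
Log2 intensity of the 10 muscle genes (vertical axes, 1 panel a gene) against the day of culture, with fresh tissue at day 0; filled circles are replicate 1, open triangles replicate 2, and lines join the means of 2 arrays in each condition. Under NGAL both arrays were high from day 3 to day 5 for Myod1, Myog, Acta1, Myh3 and Myl1, while under LIF and ANX the high points were triangles, such as Acta1 at 10.95 under LIF on day 4 beside a circle at 4.51.

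Among sarcomere genes, Acta1, the actin of the skeletal thin filament, had the widest range of the 10 genes, from 3.97 in fresh tissue to 12.74 under NGAL on day 4. Under NGAL it lay at 4.76 and 4.86 on day 1, 6.84 and 7.48 on day 2, 11.41 and 11.44 on day 3, 11.79 and 12.74 on day 4, 11.15 and 12.56 on day 5, and 9.09 and 11.16 on day 7, with fresh tissue at 3.97 and 4.56. Every NGAL array was above both fresh arrays, and those of days 3 to 7 were above all 4 uninduced arrays. Uninduced culture gave 6.04 and 5.92 on day 1 and 8.27 and 8.36 on day 2, so by the rule of 1 log2 over fresh Acta1 was up there on day 1, a difference of 1.71 (SE 1.68), and by a rule of 2 log2 it was not. Every SE given comes from the spread of duplicates over all 21 groups, not from the arrays compared alone. LIF arrays lay at 5.00 and 6.10 on day 3, 4.51 and 10.95 on day 4, 5.98 and 7.88 on day 5, and 5.19 and 10.05 on day 7. ANX arrays lay at 4.98 and 10.30 on day 3, 4.69 and 8.14 on day 4, 5.87 and 5.09 on day 5, and 4.70 and 8.84 on day 7. The 2 LIF arrays of day 4 were 6.44 apart, wider than the range of Myog over all 42 arrays.

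Myl1, a light chain of fast muscle myosin, followed Acta1 closely, with a Pearson correlation of 0.99 over the 42 arrays. Under NGAL it lay at 4.48 and 4.15 on day 1, 5.58 and 6.73 on day 2, 11.24 and 10.78 on day 3, 11.49 and 12.34 on day 4, 10.51 and 11.69 on day 5, and 8.09 and 10.72 on day 7, with fresh tissue at 4.51 and 4.14. Uninduced culture reached 8.06 and 7.98 on day 2, above both NGAL arrays of the same day. On the second LIF arrays Myl1 lay at 10.93 on day 4, 8.10 on day 5 and 9.56 on day 7, and on the second ANX arrays at 9.02 on day 3, 7.96 on day 4 and 8.59 on day 7. The first arrays of those 6 groups lay between 4.43 and 5.81.

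Myh3, the embryonic myosin heavy chain, came up under NGAL between days 2 and 3. It lay at 5.35 and 5.11 on day 1 and 5.72 and 6.16 on day 2, then at 10.67 and 10.29 on day 3, 10.90 and 11.76 on day 4, 9.89 and 11.05 on day 5, and 7.79 and 10.13 on day 7, with fresh tissue at 5.43 and 5.27. The arrays of days 3 to 7 were clear of every earlier NGAL array. Without inducer it lay at 5.52 and 5.30 on day 1 and at 7.13 and 7.14 on day 2, above the 2 NGAL arrays of day 2. Its high LIF and ANX values were again on second arrays, 9.98, 6.98 and 8.97 under LIF on days 4, 5 and 7, and 8.46, 7.09 and 7.37 under ANX on days 3, 4 and 7.

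Ttn and Synpo2l, a giant sarcomere scaffold and a Z-disc protein, were near or below the weak-signal threshold outside NGAL culture. Ttn lay at 5.38 and 5.51 in fresh tissue, and under NGAL at 5.64 and 5.15 on day 1, 5.21 and 5.57 on day 2, 6.69 and 6.84 on day 3, 7.74 and 8.28 on day 4, 6.41 and 7.47 on day 5, and 5.49 and 6.17 on day 7. Synpo2l lay at 5.44 and 5.24 in fresh tissue, and under NGAL at 5.10 and 4.98 on day 1, 5.33 and 5.44 on day 2, 7.31 and 7.16 on day 3, 7.49 and 8.48 on day 4, 7.05 and 7.65 on day 5, and 5.67 and 6.88 on day 7. Neither was as high on any array outside NGAL days 3 to 5, and both were still at the fresh level on NGAL day 2, when Myod1, Myog, Acta1 and Myl1 were up. Without inducer on day 2, Ttn lay at 5.90 and 5.71 and Synpo2l at 5.60 and 5.91. The second LIF array of day 4 gave 6.35 for Ttn and 6.81 for Synpo2l, and all 12 ANX arrays lay between 5.08 and 5.66 for both genes.

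The remaining 3 genes took courses of their own, although their products are muscle proteins. Tnnc1 lay at 7.52 and 7.77 in fresh tissue and between 8.84 and 11.88 on all 40 cultured arrays, whatever the inducer. It was highest under NGAL on day 4, at 11.14 and 11.88, and lay at 9.55 and 10.83 on day 7, when LIF gave 10.55 and 10.30 and ANX 10.34 and 10.43. Des kept within 9.51 and 10.81 over all 42 arrays, with fresh tissue at 9.62 and 9.67. Under LIF it lay at 10.42 and 10.74 on day 1 and at 9.95 and 9.61 on day 7. Under ANX it lay at 10.14 and 10.42 on day 1 and at 9.87 and 9.56 on day 7. The NGAL arrays of day 7 disagreed, at 10.81 and 9.87.

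Actn3, the fast-fibre alpha-actinin, was highest in uninduced culture, at 8.25 and 7.96 on day 1 and 8.65 and 8.66 on day 2, against 7.36 and 7.19 in fresh tissue. Under NGAL it lay at 8.25 and 7.99 on day 2, 7.64 and 8.36 on day 3, 7.37 and 7.83 on day 4, 6.73 and 6.82 on day 5, and 5.80 and 6.31 on day 7. The first array of NGAL day 7 was the lowest of all 42. LIF arrays of day 2 lay at 6.84 and 7.01 and ANX arrays at 6.59 and 6.65, all below both fresh arrays. The Pearson correlations of Actn3 and Des with Myog were 0.43 and 0.29, and that of Tnnc1 was 0.57, against 0.91 for Acta1, 0.91 for Myl1 and 0.92 for Myh3.

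A gene was counted as up on an array when it lay at least 1 log2 (2-fold) above the higher of the 2 fresh arrays. Tnnc1 was up on 40 of 40 cultured arrays, Acta1 on 23, Myl1 on 20, Myog on 16, Myh3 on 16, Myod1 on 15, Synpo2l on 8, Ttn on 5, and Des and Actn3 on 2 each. The sets were nested in part: all 15 arrays with Myod1 up and all 16 with Myog up also had Acta1 and Myl1 up, and all 8 with Synpo2l up had Myod1, Myog, Acta1, Myh3 and Myl1 up. Myod1 and Myog shared 14 arrays. Acta1 was up without Myod1 on 8 arrays, since 15 of its 23 arrays were shared. This count depends on the fresh level, which differs from gene to gene.

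On both arrays of a group, 1 of the 10 genes was up on NGAL day 1, 5 on day 2, 8 on day 3, 8 on day 4, 7 on day 5 and 4 on day 7. Of all 11387 genes past the signal filter, 1.68%, 3.24%, 3.84%, 4.87%, 3.88% and 5.66% were up by the same rule on those days. Without inducer, 2 genes were up on day 1 (1.76% of all genes) and 7 on day 2 (4.48%). Under LIF the counts were 1 on days 1 to 4, 3 on day 5 and 1 on day 7, with 2.43%, 2.27%, 3.07%, 2.78%, 3.31% and 3.08% of all genes. Under ANX the count was 1 on every day, with 2.50%, 3.05%, 2.14%, 2.92%, 3.37% and 3.69% of all genes, and that gene was Tnnc1. Since the genes were chosen for their pattern in these arrays, nothing is read from the distance to the share of all genes.

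Counted array by array, the picture under LIF and ANX differed from these group counts. The second LIF arrays of days 3, 4, 5 and 7 had 4, 7, 5 and 6 of the 10 genes up, beside 1, 1, 3 and 1 on the first arrays. The second ANX arrays of days 3, 4 and 7 had 6, 4 and 5 genes up, beside 1 on each first array, and on day 5 the counts were 2 on the first and 1 on the second. Under NGAL the 2 arrays of a day had the same count from day 1 to day 4, then 7 and 8 on day 5 and 5 and 7 on day 7.

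**Figure D2:**
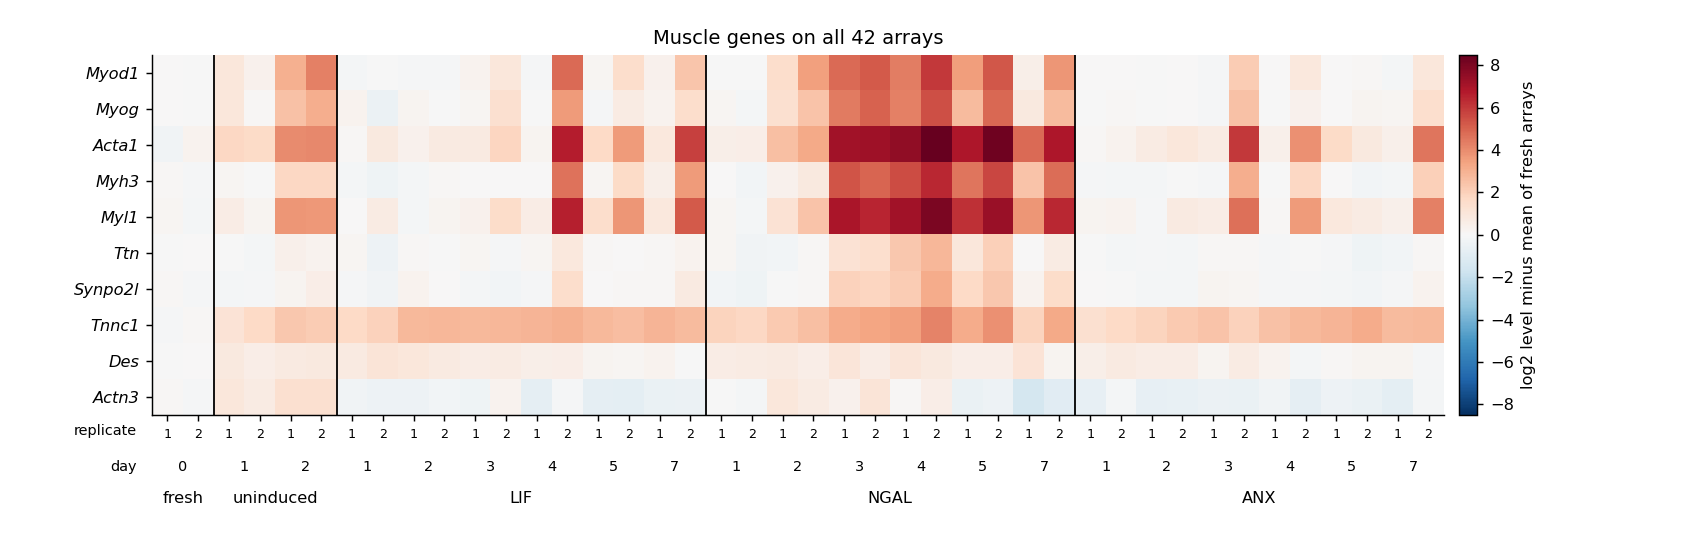
Log2 level of the 10 muscle genes (rows) minus the mean of the fresh arrays, on all 42 arrays (columns, ordered by condition, day and replicate); red is above fresh and blue below. The block of red spans both NGAL arrays from day 2, while single red columns mark LIF day 4 replicate 2 with 7 genes up and ANX day 3 replicate 2 with 6.

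By the rule of 1 log2, Acta1 and Myl1 were up under NGAL from the same day as the 2 regulators. The other sarcomere genes were up earlier, later or never. Tnnc1 was up on both arrays from day 1, Myod1, Myog, Acta1 and Myl1 from day 2, and Myh3, Ttn and Synpo2l from day 3, while Des and Actn3 never were. With a rise of 2 log2, only Acta1 and Tnnc1 were up on both arrays of NGAL day 2, so this order depends on the rule. The first array of that day had Myod1 at 5.62 and Myl1 at 5.58, below the weak-signal threshold. On day 2 Myod1 had covered 48.4% of its highest log2 rise over fresh and Myog 38.6%, Acta1 36.2%, Myl1 24.1%, Myh3 9.88%, Synpo2l 1.61% and Ttn -2.07%. On day 3 the regulators were at 97.0% and 96.1%, Acta1 at 89.5%, Myl1 at 88.1%, Myh3 at 85.8%, Synpo2l at 71.7% and Ttn at 51.6%. The highest mean fell on day 4 for these 7 genes and Tnnc1. The order rests on 2 arrays a day and on each gene's own scale, and levels of different probe sets were not set against each other. In uninduced culture Acta1 and Tnnc1 were up on both arrays on day 1 and Myod1, Myog, Myh3, Myl1 and Actn3 from day 2, and with a rise of 2 log2 in place of 1 none of the 10 genes was up on uninduced day 1.

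**Figure D3:**
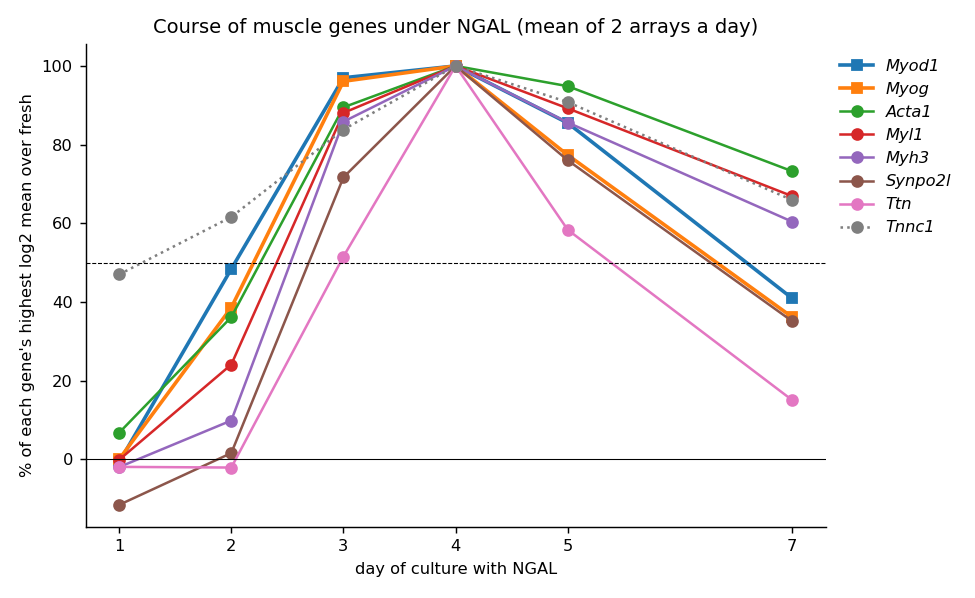
Share of each gene's highest log2 mean over fresh tissue (vertical axis, percent) against the day of culture with NGAL, from means of 2 arrays; squares mark the 2 regulators, and the dashed line stands at 50%. On day 2 Myod1 had reached 48.4% and Myh3 9.88%, and on day 7 Acta1 kept 73.3% while Ttn kept 15.1%.

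The decline after day 4 was uneven. From day 4 to day 7 of NGAL culture, Myod1 changed by -3.06 (SE 1.11), Myog by -3.12 (SE 0.89), Acta1 by -2.14 (SE 1.68), Myl1 by -2.51 (SE 1.55), Myh3 by -2.37 (SE 1.11), Ttn by -2.18 (SE 0.28), Synpo2l by -1.71 (SE 0.36), Actn3 by -1.54 (SE 0.26), Tnnc1 by -1.32 (SE 0.29) and Des by -0.24 (SE 0.21) on the log2 scale. As a share of the highest rise, day 7 kept 73.3% for Acta1, 66.9% for Myl1 and 60.4% for Myh3, but 41% for Myod1, 36.2% for Myog, 35.2% for Synpo2l and 15.1% for Ttn. These shares take fresh tissue as 0, where all of these genes but Myog were below the weak-signal threshold, so they give no order between genes. The 2 arrays of day 7 were far apart, for example 4.63 and 7.87 for Myod1. For Acta1 and Myl1 the SE was large beside the change from day 4 to day 7. These SE draw on the duplicates of all 21 groups and do not measure the gap on day 7 alone.

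Against uninduced mesenchyme of the same days, all 3 inducers had lower means of the regulators and of the actin and myosin genes on days 1 and 2. The 3 comparisons share the same 4 uninduced arrays. Myod1 differed by -2.25 under LIF, -0.92 under NGAL and -2.14 under ANX (SE 0.79 each), and Myog by -1.66, -0.72 and -1.65 (SE 0.63). Acta1 differed by -2.37, -1.16 and -2.37 (SE 1.19), Myl1 by -1.84, -1.14 and -1.75 (SE 1.10) and Myh3 by -1.08, -0.69 and -1.05 (SE 0.78). Actn3 differed by -1.47, -0.74 and -1.64 (SE 0.18). The gap was widest on day 2, when no array of LIF or ANX reached an uninduced array for Myod1, Myog, Acta1, Myh3 or Myl1. The uninduced arrays had Myod1 at 7.16 and 8.38, LIF at 4.05 and 4.01 and ANX at 4.10 and 4.13. The share of all genes apart in this way on day 2 was not counted, so nothing is read from the separation. The 2 uninduced arrays of day 2 also had the highest 5S ribosomal RNA signal, 10.10 and 10.32 against 6.32 to 6.62 in fresh tissue, and a 3' over 5' signal of the control transcript dap (log2) of 1.97 and 2.04 against 1.06 and 1.08. Their part in the result was not tested.

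Over the mean of the 6 days, each of the 10 genes was higher under NGAL than under LIF or ANX. For LIF minus NGAL the log2 difference was -2.37 (SE 0.45) for Myod1, -2.22 (SE 0.36) for Myog, -3.38 (SE 0.68) for Acta1, -2.88 (SE 0.63) for Myl1, -2.55 (SE 0.45) for Myh3, -1.04 (SE 0.15) for Synpo2l and -0.82 (SE 0.11) for Ttn. It was -0.43 (SE 0.11) for Actn3, -0.26 (SE 0.12) for Tnnc1 and -0.17 (SE 0.09) for Des. For NGAL minus ANX the values ran from 0.37 (SE 0.09) for Des to 3.63 (SE 0.68) for Acta1, with Myod1 at 2.87 (SE 0.45) and Myog at 2.46 (SE 0.36). LIF minus ANX ran from 0.10 (SE 0.11) for Actn3 to 0.49 (SE 0.45) for Myod1, with Des at 0.20 (SE 0.09) and Tnnc1 at 0.27 (SE 0.12). These 3 comparisons share arrays, and the LIF and ANX means hold the high second arrays.

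The spread between the 2 arrays of a group was itself shared by several of the muscle genes. In 12 of the 21 groups at least 4 of the 10 genes differed between the arrays by 0.5 log2 or more. In 11 of these 12 the second array was the higher for all such genes or all but 1, and on LIF day 1 they split 2 and 2. In the 9 groups with 5 or more genes past 0.5, the second array was higher in 9 of 9: LIF days 3, 4, 5 and 7, NGAL days 4, 5 and 7, and ANX days 3 and 7. The largest gaps were those of Acta1 and Myl1 under LIF on day 4, at 6.44 and 5.96, Acta1 under ANX on day 3, at 5.32, and Myod1 under LIF on day 4, at 4.90. With a gap of 1 log2 or more, 6 groups had 5 or more genes, and the second array was higher in 6 of 6. More of all tested genes were also higher on the second array in each of the 9 groups, for example 18.7% against 6.74% on ANX day 3, 9.33% against 3.92% on LIF day 4 and 16.5% against 8.26% on LIF day 7. The same held in every other LIF, NGAL and ANX group, such as ANX day 1 with 5.52% against 1.41%, and on uninduced day 1. It did not hold in fresh tissue or on uninduced day 2. Over all genes, 1.55% of fresh and 1.76% of uninduced day 2 genes passed 0.5, against 13.2% on LIF day 4, 24.8% on LIF day 7 and 25.5% on ANX day 3, so these pairs differed in many other genes as well.

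**Figure D4:**
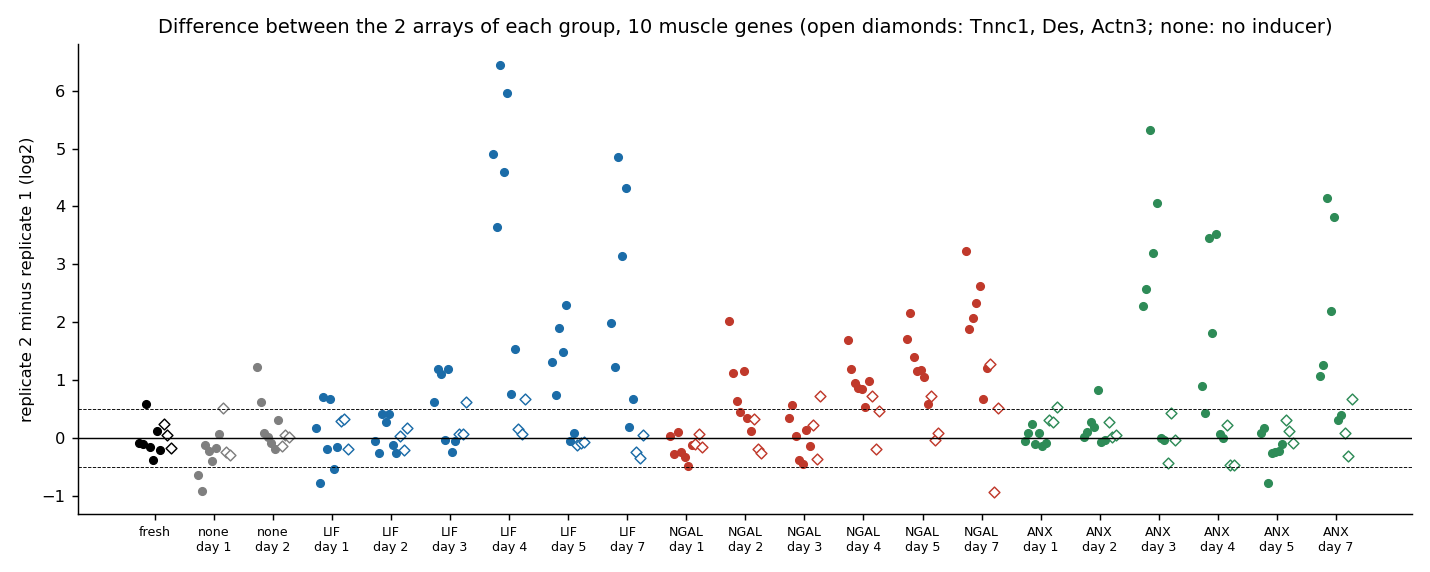
Second array minus first array of each of the 21 groups (log2, vertical axis) for the 10 muscle genes; filled circles are Myod1, Myog, Acta1, Myh3, Myl1, Ttn and Synpo2l, open diamonds Tnnc1, Des and Actn3, and dashed lines stand at 0.5 log2 above and below 0. The highest point is Acta1 at 6.44 on LIF day 4, and in the 9 groups with 5 or more genes past 0.5 those points lie above the upper line, apart from Des on NGAL day 7, below the lower line.

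Markers of smooth muscle were high on several of the same arrays. The summed intensity of the 10 smooth muscle markers was 1619 and 4537 on the 2 LIF arrays of day 4, 1690 and 4278 on those of LIF day 7, and 1698 and 4740 on those of ANX day 3. On LIF day 5, where the second array also had more muscle genes up, it was 1847 and 1552. The 3' over 5' signal of dap (log2) ran from 1.18 to 1.45 on the first and from 1.01 to 2.30 on the second LIF arrays of days 3 to 7, and from 0.90 to 1.17 and from 0.85 to 2.20 on those of ANX. The part of either in the difference between replicates was not tested, and the labels name no batch.

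To see how far the pattern reached beyond the 10 genes, 75 other muscle genes past the signal filter were tested, of 114 listed and 101 with a probe set. This list too was drawn up with earlier results of these data known. Genes were tested with limma and called at a Benjamini-Hochberg adjusted p under 0.05 over all 11387 genes. Between LIF and NGAL, as the mean of 6 days, 43 of the 75 were called, 38 lower and 5 higher under LIF, where 41.7% of all genes were called (21.4% higher and 20.3% lower). The list's median difference was -0.27 against 0.03 for all genes. Between NGAL and ANX 46 were called, 42 higher and 4 lower under NGAL, where 37.5% of all genes were called (15.3% higher, 22.2% lower), with medians of 0.28 and -0.04. Between LIF and ANX 2 genes were called, Tpm2 at 0.28 and Sync at 0.68, both higher under LIF, where 5.01% of all genes were called (1.63% higher, 3.37% lower). The Tpm2 call was lost in 20 and the Sync call in 21 of 34 alternative settings, most of them with 1 array left out.

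Each role on the list had called genes, though some roles had no larger share than all genes. Of 10 tested thick filament genes, 7 were lower and 2 higher under LIF than under NGAL, and 7 were higher and 1 lower under NGAL than under ANX. Of 10 tested thin filament genes, 5 were lower under LIF than under NGAL and 7 higher under NGAL than under ANX. Of 10 genes of excitation and calcium handling 7 and 8 were called in those directions, and of 19 Z-disc and costamere genes 8 and 9, with 2 and 1 the other way. Neuromuscular junction genes gave 3 and 4 of 6, and muscle metabolism 3 and 2 of 7. Of 7 tested cell surface and fusion genes, 2 were lower under LIF than under NGAL. In that role Mymk and Cdh15 were higher and Met lower under NGAL than under ANX. Of 6 tested regulators, 3 were lower and 1 higher under LIF than under NGAL. These shares stand beside the 41.7% and 37.5% of all genes called.

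**Figure D5:**
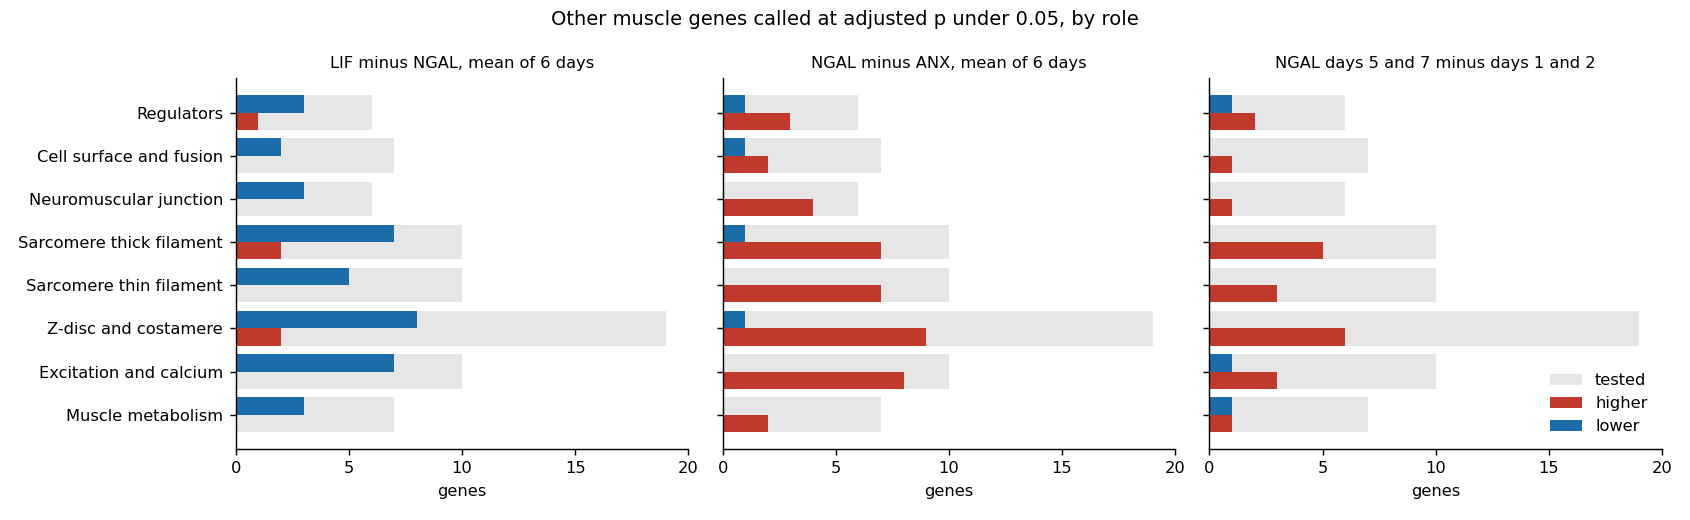
Number of other muscle genes by role (rows) that were tested (grey), higher (red) or lower (blue) at an adjusted p under 0.05 in 3 comparisons; the horizontal axis counts genes. Blue prevails for LIF minus NGAL with 38 lower of 75, and red for NGAL minus ANX with 42 higher and for late against early NGAL culture with 22 higher.

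Few of the called genes were apart on every day. Between LIF and NGAL 3 of the 75 genes were called with no overlap on any of the 6 days, where 5.91% of all genes were. These were Six4, a homeobox factor of muscle and kidney precursors, higher under LIF by 0.91 (SE 0.16, limma with Benjamini-Hochberg adjusted p = 0.000115), Mef2a, a MEF2 factor, at -0.52 (SE 0.10, adjusted p = 0.000133), and Jph2, a junctophilin, at -0.47 (SE 0.08, adjusted p = 6.61e-05). Between NGAL and ANX 2 were, with 2.88% of all genes. Mef2c, the MEF2 factor that acts with the MyoD family, was higher under NGAL by 2.72 (SE 0.39, limma adjusted p = 1.79e-05), and Myom1, a protein of the middle of the sarcomere, by 0.87 (SE 0.10, adjusted p = 1.82e-06). The calls of all 5 genes held in every setting tried, with limma adjusted p up to 0.034. Mef2c lay between 7.64 and 9.72 on the 6 NGAL arrays of days 3 to 5, between 3.94 and 7.79 on those of LIF and between 3.91 and 6.60 on those of ANX.

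Within NGAL culture, 25 of the 75 genes were called between days 5 and 7 and days 1 and 2, 22 higher and 3 lower late, where 12.0% of all genes were called (6.24% higher, 5.73% lower). Of the 25, 16 showed no overlap between the early and late arrays, where 911 of all 11387 genes (8.0%) were called with no overlap. The largest were Myl11, the fast regulatory light chain, at 4.43 (SE 0.94, limma adjusted p = 0.00277), Cryab, a chaperone of desmin, at 2.37 (SE 0.37, adjusted p = 0.000115), and Actn2, the other sarcomeric alpha-actinin, at 2.30 (SE 0.44, adjusted p = 0.00117). Myl11 lay between 5.13 and 7.43 on the 4 arrays of days 1 and 2 and at 8.66 and 10.95 on day 7. Without the second array of day 5 the count was 14, and with day 7 against day 1 alone it was 8, where Actn2 had limma adjusted p = 0.14. Under LIF 3 genes were called late against early, Ncam1 (1.42), Mef2a (0.68) and Tpm3 (-0.42), where 9.09% of all genes were called (4.22% higher, 4.87% lower). Without the first array of day 1 or the second of day 5 that count was 1, and without either array of day 7 it was 6. Under ANX 6 were called, 4 higher and 2 lower, where 15.9% of all genes were called (8.06% higher, 7.81% lower), with Trim63 (2.02), a ubiquitin ligase of muscle, and Cryab (1.45) higher and Flnc (-1.49) lower. For an interaction of inducer and day, limma called 0 of the 75 genes (30 had an unadjusted p under 0.05) and 4 of all 11387 genes (0.0351%).

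Without inducer, the share of the other muscle genes called was near that of all genes. It was a little lower when both directions were counted and a little higher for genes that rose. On day 1, 3 of the 75 were called against fresh tissue, Flnc (1.53), Tpm2 (1.12) and Mef2a (0.82), all higher, where 6.06% of all genes were called (3.80% higher, 2.26% lower). Without the first or the second fresh array, or without the first array of day 1, the count was 1. On day 2, 14 were called, 10 higher and 4 lower, where 22.2% of all genes were called (9.48% higher, 12.7% lower). Tnnt2, the cardiac troponin T that embryonic skeletal muscle also makes, was higher by 3.79 (SE 0.61, limma adjusted p = 0.000153), Tnnc2, the fast troponin C, by 3.45 (SE 1.05, adjusted p = 0.0212) and Trim63 by 2.15 (SE 0.63, adjusted p = 0.0177). Without any 1 of the 4 arrays the count was 4 or 5, and Tnnc2 and Trim63 were not called, with limma adjusted p up to 0.11. With the dap ratio as a covariate the count was 7.

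Compared with uninduced culture on days 1 and 2, 9 of the 75 genes were called under LIF (3 higher, 6 lower, 24.0% of all genes, 11.4% higher and 12.6% lower), 0 under NGAL (0% of all genes, with 1 gene of the list at an unadjusted p under 0.05 by limma) and 8 under ANX (2 higher, 6 lower, 20.3% of all genes, 11.1% higher and 9.12% lower). Mef2c differed by -2.49 under LIF (SE 0.67, limma adjusted p = 0.00935) and by -2.29 under ANX (SE 0.67, adjusted p = 0.0186). Tnnt2 differed by -1.85 (SE 0.43, adjusted p = 0.00352) and -1.65 (SE 0.43, adjusted p = 0.00925). Tnnc2 was called under LIF at -2.21 (SE 0.74) and Pdlim3, a Z-disc protein, under ANX at -1.15 (SE 0.34). Of 16 alternative settings, 8 ended the Tnnc2 call under LIF, 5 the Pdlim3 call and 5 the Mef2c call under ANX, most of them with 1 array left out, at limma adjusted p up to 0.10, 0.12 and 0.099. Without the first uninduced array of day 1 the counts were 5 under LIF and 2 under ANX, and without the second uninduced array of day 2 the ANX count was 3. The ANX count was 3 or 4 without either ANX array of day 1 and 3 without the first ANX array of day 2.

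Inhibitors of myogenesis and signals that act on muscle were read from a second list, of which 25 of 26 genes were tested. The genes named here were picked after their values were seen. Id1, which binds the partners of MyoD and keeps them from DNA, lay at 10.82 and 10.96 in fresh tissue and between 9.51 and 9.99 on the 4 uninduced arrays. It was higher under LIF than without inducer by 1.09 (SE 0.14, limma adjusted p = 1.36e-05) and under ANX by 1.15 (SE 0.14, adjusted p = 7.44e-06). Over 6 days it was higher under LIF than under NGAL by 0.54 (SE 0.08, limma adjusted p = 1.45e-05), and NGAL minus ANX was -0.77 (SE 0.08, adjusted p = 5.17e-07). Id3, another Id gene, went the other way for LIF minus NGAL, at -0.24 (SE 0.10, limma adjusted p = 0.0434). That call was lost in 17 of 34 settings. Under ANX, Id3 was higher than without inducer by 0.68 (SE 0.17, limma adjusted p = 0.00558). Id1 then rose under NGAL from days 1 and 2 to days 5 and 7 by 1.28 (SE 0.14, limma adjusted p = 1.96e-06), and lay at 10.73 and 11.03 on day 7. Under ANX it rose over the same days by 0.52 (SE 0.14, limma adjusted p = 0.0121), a call lost in 5 of 16 settings.

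Nog, the BMP antagonist noggin, was higher under LIF than without inducer by 2.03 (SE 0.28, limma adjusted p = 2.86e-05), under ANX by 1.56 (SE 0.28, adjusted p = 0.000435), and under LIF than under NGAL by 1.18 (SE 0.16, adjusted p = 6.07e-06). Fst, the myostatin and activin antagonist follistatin, was higher under LIF and ANX than without inducer by 2.15 and 3.43 (SE 0.38, limma adjusted p = 0.00033 and 2.75e-06), and was not called for LIF minus NGAL or NGAL minus ANX. The Notch ligand Jag1 rose under NGAL from early to late culture by 2.99 (SE 0.26, limma adjusted p = 5.19e-08), and the Notch target Hey1 by 2.32 (SE 0.31, adjusted p = 2.17e-05). The rise was called under the other inducers too, for Jag1 at 1.61 under LIF and 2.03 under ANX, and for Hey1 at 1.80 and 1.99. Mstn, myostatin, a brake on muscle growth made by muscle itself, was lower under LIF than under NGAL at -1.27 (SE 0.31, limma adjusted p = 0.00195), and NGAL minus ANX was 1.25 (SE 0.31, adjusted p = 0.00298). It lay between 4.78 and 8.85 on the NGAL arrays of days 3 to 5, and at most 4.17 on the arrays of day 7. Twist1, which restrains MyoD in other cells, was also higher under NGAL, with LIF minus NGAL at -1.26 (SE 0.17, limma adjusted p = 5.46e-06). So were Tgfb1, Zeb1 and Snai1 of this list, with LIF minus NGAL at -0.75, -0.47 and -0.52 (limma adjusted p = 0.000144, 0.0012 and 0.0025). By limma, 11 of the 25 genes were called for LIF minus NGAL (5 higher, 6 lower) and 10 for NGAL minus ANX (3 higher, 7 lower), shares near the 41.7% and 37.5% of all genes called. With second arrays alone, a setting added after seeing the data, NGAL minus ANX was not called for Nog, Mstn or Twist1, at limma adjusted p = 0.14, 0.067 and 0.11.

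Most markers of smooth muscle and of renal stroma were, like the muscle genes, higher under NGAL than under LIF or ANX. All 9 tested smooth muscle markers were lower under LIF than under NGAL and 8 of 9 were higher under NGAL than under ANX, with limma at an adjusted p under 0.05. Their summed intensity, over 10 markers, was 1552 to 4537 on LIF arrays, 3775 to 14044 on NGAL arrays, 1698 to 4740 on ANX arrays, 3109 to 6184 without inducer and 2105 to 2232 in fresh tissue. Acta2 and Tagln, defining markers of smooth muscle, were above the weak-signal threshold on all 42 arrays, and Cnn1 was above it on 8 of 12 NGAL arrays, 4 of 4 uninduced arrays and 0 of the other 26. By day of NGAL culture the smooth muscle sum shared part of its course with the muscle genes. Its second array was the higher on each day. The sum was 3775 and 6576 on day 1, when Tnnc1 alone of the 10 genes was up. It was 5366 and 13222 on day 2, 12621 and 13105 on day 3, and 6896 and 13551 on day 4. On day 5, with Acta1 at 11.15 and 12.56, it was 4136 and 14044. On day 7, when Myod1 lay at 4.63 and 7.87, it was 8138 and 13693. Renal stroma markers, 9 tested, were also lower under LIF than under NGAL in 7 cases with 1 higher, and 8 were higher and 1 lower under NGAL than under ANX. Their sum was 21227 to 36408 on NGAL arrays, 8890 to 19300 on LIF arrays and 9681 to 27017 on ANX arrays. Their part in the muscle result was not tested.

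Of 6 tested heart markers 0 were called by limma for LIF minus NGAL or NGAL minus ANX, with 0 at an unadjusted p under 0.05. On uninduced day 2 against fresh 1 was called higher, and for ANX minus uninduced 1 lower. Nppa, a natriuretic peptide of the heart, ran from 6.74 to 8.06, while the summed intensity of the 10 with a probe set stayed between 641 and 847 on all 42 arrays. Myh6, the heart myosin heavy chain, was below the weak-signal threshold on all 42 arrays, and Nkx2-5 kept between 6.04 and 6.66. Among skeletal markers, Myf6, a late member of the MyoD family, stayed at or below 4.23 on all arrays, while Chrna1, the muscle acetylcholine receptor subunit, lay between 6.63 and 8.40 on the NGAL arrays of days 3 to 5 and at a median of 6.01 in fresh tissue. Myf5, Pax3 and Pax7 were not analysed here. Of 8 tested markers of the nephron progenitor, 7 were lower under NGAL than under ANX and 4 higher under LIF than under NGAL.

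The genes most like the 10 were found by Pearson correlation over the 42 arrays with the mean of the 10 genes' standardised levels. They were Tnnc2 (r = 0.97, Spearman rho 0.90), Tnnt1 (0.97, 0.89), Myl4 (0.96, 0.86), Myl11 (0.95, 0.91), Mymk (0.95, 0.77), Srl (0.95, 0.77), Klhl41 (0.94, 0.74), Wdr44 (0.92, 0.83), Chrna1 (0.92, 0.75) and Mybph (0.92, 0.70). Of these, 9 were on the other muscle list, which covers troponins and light chains, myomaker (Mymk, the fusion protein), sarcalumenin (Srl) and the receptor Chrna1, and Wdr44 was not. Without the 2 arrays farthest from the median the correlations were 0.88 to 0.97. Tnnt1, slow troponin T, lay at 3.82 and 3.89 in fresh tissue, between 7.38 and 9.68 on the NGAL arrays of days 3 to 5, and between 4.06 and 8.36 on those of LIF. Mymk lay between 6.43 and 8.54 on the same NGAL arrays and at 4.90 and 4.92 in fresh tissue. The lowest correlations were those of Mfng (-0.77), Acads (-0.77), Ift57 (-0.77), Pctp (-0.76) and Vash1 (-0.76). These are descriptions over arrays that share conditions and replicates, with no test.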

How the data were processed

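Values of 31099 probe sets on 42 arrays were deposited as intensity values on a linear scale. Per the labels and the submitters' processing notes, the authors made them by robust multichip analysis (RMA), with no version given. They ran from 7.6 to 17972. The platform table gave 1 gene to 20826 probe sets, several to 436 and none to 9837. For each of 14217 genes the brightest probe set by mean was kept, and log2 was taken. Genes with a group mean above the 40th percentile (log2 5.79, intensity 55.2) were tested, 11387 in all. The 10 muscle genes passed, most of them through the groups where they are high, and genes of the other muscle list could pass by the same route.

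With limma 3.58.1 (R 4.3.3), 1 mean was fitted for each of the 21 groups on the 42 arrays, leaving 21 residual degrees of freedom, with empirical Bayes variances that follow a trend and Benjamini-Hochberg adjustment over all genes. On simulated data 97% of log2 shifts of 1 were recovered for LIF minus NGAL, 87% for NGAL minus uninduced, 94% for late against early NGAL and 81% for uninduced day 2 against fresh. False calls numbered 7, 5, 9 and 6. The 100 shifted genes were drawn from all tested genes, with noise independent between genes and 1 spread per gene over all 21 groups. In the data the spread differed by group, with 1.55% of genes past 0.5 log2 between the fresh arrays and 25.5% on ANX day 3. Recovery was not measured for muscle genes, whose gaps between duplicates were shared and often wide, such as Tnnc2 (SE 1.05 for uninduced day 2 minus fresh). The members and gene lists were chosen with earlier results of these data known. Named genes were the 10 members, the 10 genes most and 5 least like them, and per comparison up to 3 called muscle genes with the largest difference and no overlap on any day; inhibitors and marker genes were picked with their values in view. The settings varied were the filter (none, or a stricter one at the 60th percentile), quantile normalization again, the mean of probe sets, no variance trend, the dap ratio as a covariate, a replicate block, other days, each array left out, and, chosen after seeing the data, arrays of 1 replicate number alone. Promoters came from RefSeq (GRCr8).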

Additional observations from a re-analysis of the deposited data

How the results depend on the processing

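Counts are of the 75 other muscle genes called by limma at an adjusted p under 0.05, and no named gene turned direction in any setting run. Averaging all probe sets of a gene gave 0 in place of 3 for uninduced day 1 against fresh, and 4 in place of 2 for LIF minus ANX. The dap ratio as a covariate gave 7 in place of 14 for uninduced day 2 and 6 in place of 3 for LIF late against early. Day 2 alone gave 3 in place of 9 for LIF minus uninduced and 5 in place of 8 for ANX minus uninduced, where the stricter filter also gave 5. LIF minus ANX gave 1 with no filter, with quantile normalization again and with no variance trend, and 0 with days 3, 4, 5 and 7 or with either replicate number alone. Second arrays alone, a setting added after seeing the data, gave 20 in place of 43 for LIF minus NGAL and 19 in place of 46 for NGAL minus ANX, with fewer arrays by construction. Day 7 against day 1 gave 9 in place of 3 under LIF and 8 in place of 25 under NGAL. With a replicate block, which pairs arrays by number, LIF late against early gave 5 in place of 3, and the other counts of this list stayed within 1.5 times. Replicate numbers were not taken as pairs in the counts above, since over 210 pairs of groups the deviations of same-numbered arrays correlated at a median of 0.065 (range -0.65 to 0.74). With 1 array left out the counts ran from 1 to 4 for uninduced day 1, 4 to 5 for uninduced day 2, 5 to 11 for LIF minus uninduced, 2 to 11 for ANX minus uninduced, 39 to 49 for LIF minus NGAL, 0 to 3 for LIF minus ANX, 41 to 50 for NGAL minus ANX, 1 to 6 for LIF late, 14 to 31 for NGAL late, 4 to 8 for ANX late and 0 to 4 for inducer by day. The F-test count of 4 came without the first NGAL array of day 4. Among named genes, calls were kept in 625 tests and lost in 46 in other settings, and kept in 806 and lost in 138 with 1 array left out. With a rise of 2 log2 in place of 1, 2 of the 10 genes in place of 5 were up on NGAL day 2, and with any gap between replicates counted, 5 of 21 groups shared a direction in all genes or all but 1, in place of 14 of 15 with 0.5 log2, 3 of which had 2 or 3 genes and so could not do otherwise. The causes were not tested. Myod1, Myl1, Ttn and Synpo2l were above the threshold of 5.79 on 13, 19, 9 and 10 of the 42 arrays, which limits what their low values can show.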
